A study of Auxenochlorella pyrenoidosa with 12 samples.

Results

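Cells of Chlorella pyrenoidosa (also Auxenochlorella pyrenoidosa), a single-celled freshwater green alga, were compared after 12 days in culture with potassium peroxymonosulfate (PMS) and in a control without PMS. The exposed cultures received 8.49 mg/L, 0.5 of the median effective concentration found in the acute test of the study. Each group had 2 RNA sequencing libraries made from total RNA of whole cells, and the comparison took 4 of the 12 libraries of the series. The other 8 came from cultures at the same concentration on days 0, 3, 6 and 9. Transcript levels were given as FPKM, the number of fragments of a contig scaled to its length and to the fragments of the library, for 30814 contigs assembled without a genome. The comparison covered the 21878 contigs that reached at least 1 FPKM in both day 12 libraries or in both control libraries.

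The title of the control libraries can be read as a dose of 0 or as day 0, and no control sampled on day 12 was analysed here. Exposure and culture age therefore cannot be told apart in any difference between day 12 and the control. The design text of the series speaks of at least 3 repeats, whereas each group had 2 libraries, and no label tells if a pair stems from different cultures. The p-values thus reflect how far paired libraries lay apart, which may be technical variation alone. In RNA of whole cultures, fewer cells that express a transcript and less of it per cell cannot be told apart either.

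PMS is an oxidant used in water treatment that can be activated to sulfate and hydroxyl radicals. Green algae meet oxidants with antioxidant enzymes and low-molecular-weight antioxidants, and much of their own reactive oxygen arises in photosynthesis in the chloroplast. An algal batch culture also changes with age without any toxicant, as cell density rises and nutrients and light per cell fall. No gene names came with the contigs, so none of these systems could be looked up, and contigs are described by their levels.

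The day 12 libraries spread their FPKM over more contigs than the control libraries did. At least 1 FPKM was reached by 51.6% and 50.6% of all contigs in control libraries 1 and 2, and by 71.5% and 67.4% in day 12 libraries 1 and 2. The number listed at exactly 0 was 10105 and 9963 in the control and 944 and 1035 on day 12. Both measures placed the 4 libraries into their groups without overlap. The depth in fragments, which sets how low a contig can be seen, is unknown, and its part in these counts was not tested. Whether all counted contigs belong to the alga was not checked.

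The top of the distribution moved in the same sense. The most abundant 100 contigs held 41.4% and 42.6% of the total FPKM in the control libraries, and 34.9% and 35.5% on day 12. It took 177 and 162 contigs to reach 50% of the total in the control, against 317 and 295 on day 12. Contigs of at least 1000 FPKM numbered 86 and 91 in the control and 61 in each day 12 library. In contrast, the single most abundant contig held a larger share on day 12, 6.71% and 6.47%, than in the control, 4.69% and 4.94%. These library values were not tested, since an exact two-sided permutation test on pairs cannot give a p below 0.333.

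**Figure D1:**
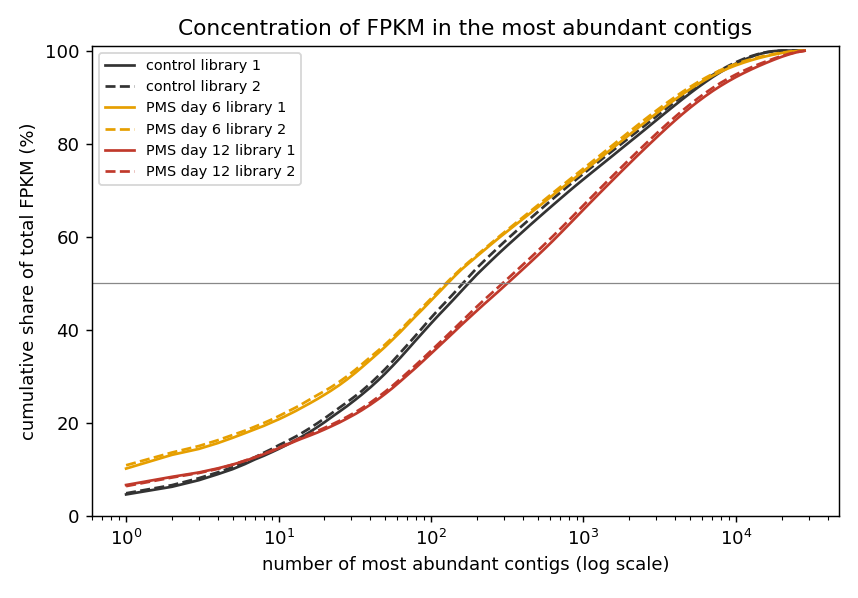
Cumulative share of total FPKM (y axis, %) held by the most abundant contigs (x axis, number of contigs on a log scale), 1 line per library of the control, day 6 and day 12. The day 12 lines cross 50% at 317 and 295 contigs, to the right of the control lines at 177 and 162 and of the day 6 lines at 129 and 126.

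The libraries of a group were far more alike than libraries of different groups. The share of FPKM that 2 libraries had in common, summed as the smaller share of each contig, was 96.2% between the control libraries and 95.3% between the day 12 libraries. Across groups it lay between 63.2% and 64.9% in the 4 pairings of a control with a day 12 library. Per contig, the median absolute difference on the log2(FPKM + 1) scale was 0.10 between the control libraries, 0.15 between the day 12 libraries and 1.21 between the group means.

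Most of the analysed contigs differed between day 12 and the control. At a limma adjusted p under 0.05, 9414 contigs (43.0%) were higher and 7410 (33.9%) lower on day 12, 76.9% of those tested in all. By at least 2-fold, 7725 (35.3%) rose and 5043 (23.1%) fell. Changes were taken as differences of log2(FPKM + 1), so those of weakly expressed contigs are understated, and a called contig is one past that adjusted p. In 91.4% of the contigs the day 12 and control libraries did not overlap, 10927 with day 12 above and 9070 with day 12 below, which is to be read beside the 76.9% called. Among contigs with at least 1 FPKM in all 4 libraries it was 87.8%, with 4016 above and 6023 below in FPKM as deposited. Libraries set 2 against 2 also separate with a probability of 0.333 where no difference exists. The contigs called higher made up 12.1% and 11.4% of the FPKM of the control libraries and 42.2% and 41.6% of the day 12 libraries. Those called lower went from 57.2% and 57.8% of the control libraries to 22.9% and 23.6% on day 12. Both lists were chosen on these libraries, so the direction of these shifts follows from the choice.

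**Figure D2:**
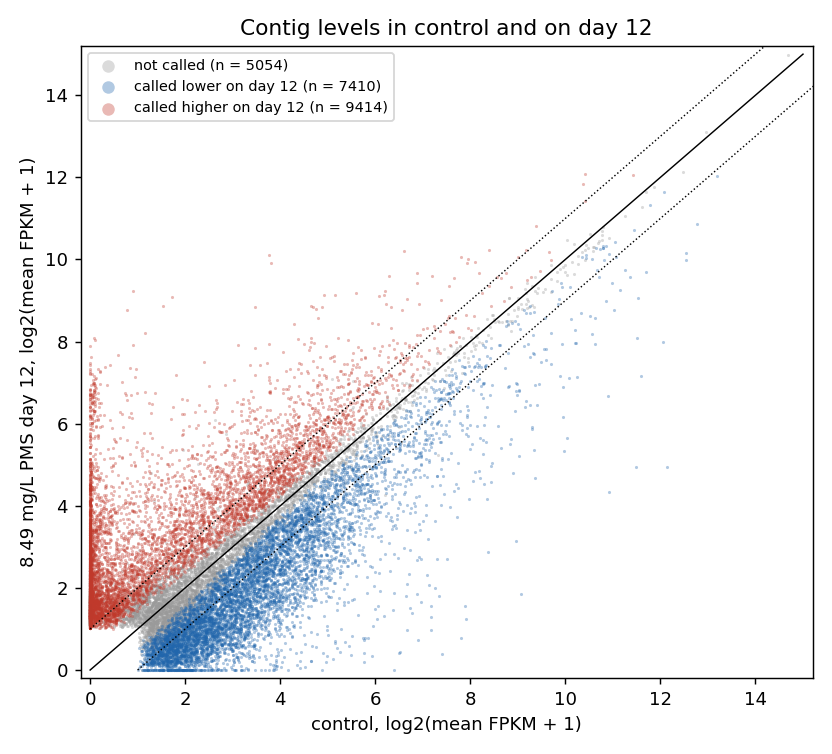
Mean level in the control (x axis) and on day 12 (y axis) of the 21878 analysed contigs, each as log2(mean FPKM + 1), with contigs called higher in red (n = 9414), called lower in blue (n = 7410) and not called in grey (n = 5054). The solid line marks equal levels and the dotted lines a 2-fold difference on this scale, and a dense red column stands at 0 in the control.

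The entry rule itself set part of this balance. A contig that entered through 1 group alone was below 1 FPKM in at least 1 library of the other group, which nearly fixes the direction of any difference. Contigs are therefore kept apart by how they entered. Shared contigs reached 1 FPKM in all 4 libraries, and there were 11431 of them (52.3%). Day 12-side contigs (7110, 32.5%) reached it in both day 12 libraries but not in both control libraries, and control-side contigs (3337, 15.3%) the reverse. At the edge of the rule, 824 contigs had a lower library of 1 to 1.1 FPKM in their better group and 858 just outside it had 0.9 to 1 FPKM. Their medians were 1.09 and 1.06 FPKM inside and 0.988 and 0.964 FPKM outside in day 12 libraries 1 and 2, and 0 in both control libraries on either side.

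Among shared contigs, falls outnumbered rises in FPKM as deposited. Of the 11431, 3040 (26.6%) were called higher, 4789 (41.9%) lower and 3602 (31.5%) were not called, beside 43.0% and 33.9% over all contigs tested. The median change was -0.25 on the log2 scale. This balance depended on the scaling of the libraries. After each library was divided by its median ratio to the others, and with the fit on shared contigs alone, 3956 were higher and 3735 lower and the median change was 0.04. Rescaling raised the median change of all analysed contigs by 0.27 on the log2 scale. The divisors were 1.298 and 1.258 for the control libraries and 1.005 and 1.003 for the day 12 libraries. The shift was larger in well-expressed contigs, where the 1 added to FPKM weighs little. Directions of changes near or somewhat above 0.27 are thus relative to the scaling used.

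Which direction held more of the large changes in shared contigs depended on the scaling. In FPKM as deposited, 520 were called higher and 803 lower at 4-fold or more, 154 and 128 at 8-fold, 38 and 42 at 16-fold, and 11 and 17 at 32-fold. As deposited, 1723 rose and 2883 fell by 2-fold or more. After rescaling, 2357 were higher and 2033 lower at 2-fold, 728 and 449 at 4-fold, 223 and 86 at 8-fold, 59 and 32 at 16-fold, and 13 and 12 at 32-fold. The balance thus turned with the scaling at 2-fold, 4-fold, 16-fold and 32-fold, and kept its direction at 8-fold. The rescaled counts are a check added after seeing the data. As deposited, the median size of a called change was 2.15-fold for rises and 2.25-fold for falls.

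The 38 shared contigs that rose at least 16-fold had a median of 3.14 and 3.17 FPKM in control libraries, 4.76 and 4.68 (day 0), 84.4 and 84.7 (day 6) and 117 and 125 FPKM on day 12. The 42 that fell at least 16-fold had a median of 152 and 150 FPKM in control cells, 147 and 141 (day 0), 10.4 and 10.00 (day 3) and 3.56 and 3.59 FPKM on day 12. They held 4.82% and 4.99% of all FPKM in the control libraries and 0.174% and 0.169% on day 12. Levels of day 0 therefore stood near the control in both lists, which were chosen on day 12 and the control and not on day 0.

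Of shared contigs with close libraries in both groups, 2 that rose furthest and 2 that fell furthest are named. TRINITY_DN1921_c0_g1_i1_2 stood at 2.43 and 2.19 FPKM in control libraries 1 and 2 and at 532 and 545 FPKM in day 12 libraries 1 and 2. It was 233-fold higher on day 12 in mean FPKM, or 7.35 on the log2 scale (SE 0.10), at a limma adjusted p of 3.96e-10. Between these it read 3.90 and 3.70 (day 0), 13.3 and 10.9 (day 3), 13.3 and 12.0 (day 6), and 92.6 and 96.4 FPKM (day 9). The libraries of each sampling day lay close together, days 3 and 6 shared a plateau, and the largest part of the rise came after day 6.

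TRINITY_DN50_c1_g1_i1_1 stood at 2.25 and 1.58 FPKM in control cells and at 457 and 468 FPKM on day 12. Its mean FPKM was 242-fold higher, or 7.32 on the log2 scale (SE 0.17), at a limma adjusted p of 6.01e-09. Unlike the first, it was already at 137 and 149 (day 3), stood lower at 61.0 and 62.8 (day 6) and reached 149 and 209 FPKM on day 9. The 2 largest rises of shared contigs thus took different courses to similar end levels.

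TRINITY_DN1248_c0_g1_i3_4 stood at 521 and 544 FPKM in control cells and at 2.75 and 2.48 FPKM on day 12. The control level was 204-fold above day 12, or -7.21 for day 12 minus control on the log2 scale (SE 0.19), at a limma adjusted p of 1.08e-08. The other pairs read 641 and 680 (day 0), 10.3 and 7.88 (day 3), 6.46 and 5.92 (day 6), and 6.00 and 3.47 FPKM (day 9). Most of the fall lay between day 0 and day 3, and the day 12 libraries were the lowest of all 12.

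TRINITY_DN449_c0_g1_i31_2 was the eighth most abundant contig of the control, at 3643 and 5330 FPKM, and stood at 28.3 and 31.0 FPKM on day 12. The control mean was 151-fold above day 12, or -7.17 for day 12 minus control on the log2 scale (SE 1.39), at a limma adjusted p of 0.00127. Its SE was the largest of the named contigs, and the fit takes the spread from all 12 libraries. Pairs from other days read 2664 and 54.6 (day 0), 293 and 155 (day 3), 48.0 and 58.0 (day 6), and 219 and 90.5 FPKM (day 9). Day 0 library 2 stood near the late levels while day 0 library 1 stood near the control, and why was not tested.

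**Figure D3:**
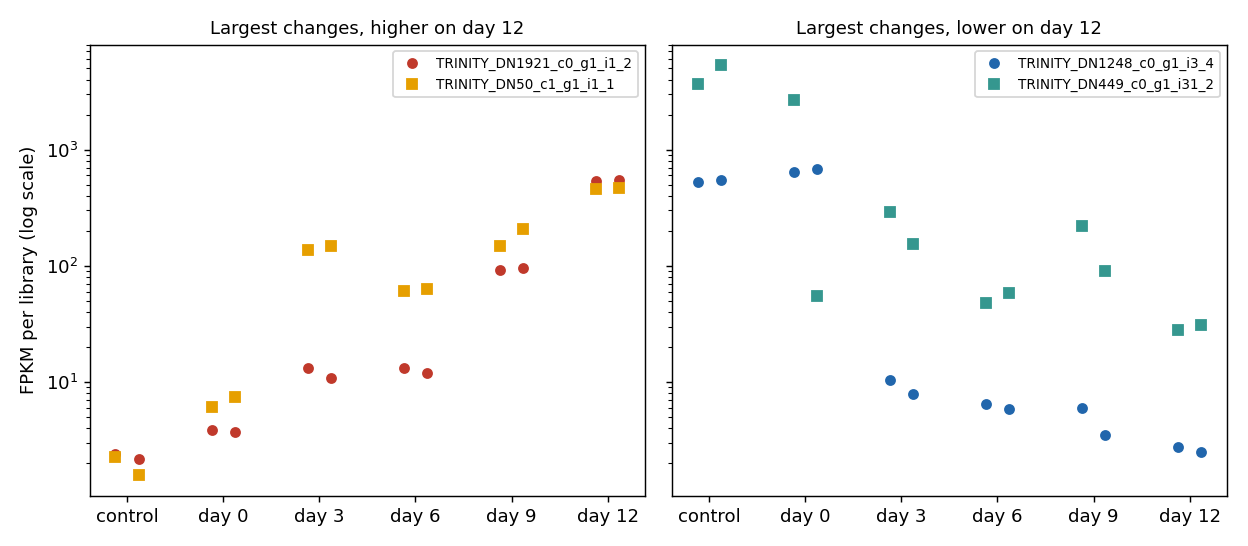
FPKM of the named contigs (y axis, log scale) in each of the 12 libraries, with 2 points per group along the x axis, libraries 1 and 2 from left to right. The contigs that rose end at 457 to 545 FPKM on day 12, and the day 0 libraries of TRINITY_DN449_c0_g1_i31_2 lie apart at 2664 and 54.6 FPKM.

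The most abundant transcripts of the control often fell in FPKM as deposited, but most stayed near the top of the ranking. Of the 100 contigs with the highest mean in the control, 68 were still among the 100 highest on day 12, while the control libraries shared all 100 and the day 12 libraries 97. Of these 100, 60 were called lower, 4 higher and 36 were not called. Over all contigs 33.9% were lower and 43.0% higher, and over shared contigs 41.9% and 26.6%. The median change of the 100 was -0.51 on the log2 scale as deposited, and the smaller falls among them are relative to the scaling used. Ranking by the control favours contigs that are high there, and the 100 highest contigs of day 12 held 31 called higher and 28 called lower.

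The most abundant contig was the same in both groups, at 25358 and 27548 FPKM in control cells and 32956 and 31628 FPKM on day 12. Its change was 0.29 on the log2 scale (SE 0.36, limma adjusted p = 0.474), while days 3 and 6 had 50812 to 60512 FPKM. The second of the control fell from 8932 and 9760 FPKM to 4065 and 4367 FPKM (log2 change -1.15, SE 0.27, limma adjusted p = 0.00364). The tenth fell from 4102 and 4459 FPKM to 261 and 245 FPKM, a log2 change of -4.07 with a limma adjusted p of 9.53e-08, and took rank 239. In the other direction, a contig of rank 63 in the control rose from 1386 and 1350 FPKM to 4329 and 4331 FPKM and took rank 4 (log2 change 1.66, limma adjusted p = 2.93e-06). Very abundant contigs thus changed in both directions, with day 12 libraries that agreed closely.

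Among shared contigs, the shares called were compared by mean level over all 12 libraries. Of the 1045 with a mean under 2 FPKM, 5.65% were called higher and 14.2% lower. From 2 to 10 FPKM the shares were 20.1% higher and 47.1% lower (n = 5136), and from 10 to 100 FPKM 37.9% and 42.4% (n = 4614). Of the 558 contigs from 100 to 1000 FPKM, 34.4% were higher and 41.9% lower. Of the 78 contigs of at least 1000 FPKM, 9 were higher and 36 lower. In FPKM as deposited, lower calls exceeded higher calls in each of these bands. Over all analysed contigs under 2 FPKM the shares were 55.2% higher and 21.3% lower, but 5617 of those 9125 were day 12-side contigs, whose direction the entry rule nearly fixes.

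Day 12-side contigs were mostly of low level. Of the 7110, 6374 were called higher, 0 lower and 736 (10.4%) were not called, and the entry rule nearly fixes the direction. Their mean day 12 level had a median of 2.21 FPKM, with quartiles of 1.61 and 3.81 FPKM, and 81.9% lay under 5 FPKM. Shared contigs had a median of 7.38 FPKM on day 12, with 39.2% under 5 FPKM. Of the day 12-side contigs 4043 (56.9%) were listed at 0 in both control libraries, for which no fold change is given. Together the 7110 held 0.276% and 0.234% of the FPKM of the control libraries and 8.80% and 8.31% of the day 12 libraries.

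The number of these contigs that reached 1 FPKM in both libraries rose with each sampling day. Of the 7110, both libraries reached 1 FPKM in 294 contigs on day 0 and in 1025 on day 3, and this number was 2680 on day 6 and 3340 on day 9. Their median on day 9 was 1.16 and 1.37 FPKM, against 2.37 and 2.08 FPKM on day 12. The share that met this level on day 9 was 47.0%, and all met it on day 12 by the entry rule. The day 3 libraries differed over the 7110, with medians of 0.517 and 0.0979 FPKM in libraries 1 and 2. The 7110 held 3.83% and 1.16% of the FPKM of these libraries. The day 3 count, which asks for both libraries, therefore depended on the lower one.

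A smaller number reached high levels, and these fell into unlike kinds by their day 3 libraries. On day 12, 623 of the 7110 stood at 10 FPKM or more and 62 at 100 FPKM or more. In 374 of the 623 (60.03%), day 3 library 1 was at least 4 times library 2, after adding 0.1 FPKM to each, and in 221 (35.5%) these libraries were within 2-fold. Among the 2302 shared contigs called higher that also stood at 10 FPKM or more, 1 (0.0434%) had such a ratio of 4 and 2216 (96.3%) were within 2-fold.

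The 374 contigs had a median of 0 FPKM in each control and day 0 library, 15.7 and 0.603 FPKM in day 3 libraries 1 and 2, 17.8 and 8.97 (day 6), 13.9 and 9.55 (day 9) and 19.3 and 19.2 FPKM on day 12. The 221 had 0.203 and 0.241 FPKM in control cells, 3.90 and 4.22 (day 3), 7.19 and 7.12 (day 6), 14.2 and 14.6 (day 9) and 20.6 and 18.8 FPKM on day 12. In the first kind, chosen by its day 3 libraries, the day 6 and day 9 medians also differed between libraries, whereas in the second they did so little, and on day 12 both kinds had close medians. The first kind held 3.17% and 3.12% of the FPKM of the day 12 libraries, 1.85% of day 3 library 1 and 0.159% of day 3 library 2. These groups were formed after their values were seen and were not tested, and neither was the part that day 3 library 1 had in them. No sequences of the contigs were used here. It was thus not checked whether the 374 belong to the alga or to another organism in the cultures, and their share of the day 12 FPKM is to be read with that limit. The same limit holds for all 7110 day 12-side contigs, over which the day 3 libraries also differed. Of the 9414 contigs called higher, 6374 were day 12-side.

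The highest of the 623 contigs, which are part of the split above, held both kinds. Of the 62 with 100 FPKM or more, 43 were of the first kind, with a median of 37.0 and 1.46 FPKM in day 3 libraries 1 and 2 and 124 and 121 FPKM on day 12. The other 19 were within 2-fold between the day 3 libraries, and the highest day 12-side contig, at 596 and 607 FPKM on day 12, was among them. That contig stood at 0.998 and 0.749 FPKM in control cells, 252 and 279 (day 3), 73.0 and 68.9 (day 6) and 250 and 270 FPKM on day 9.

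Control-side contigs were fewer, and few were listed at 0 on day 12, as was true of all contigs. Of the 3337, 2621 were called lower, 0 higher and 716 (21.5%) were not called, and the entry rule again nearly fixes the direction. Their median was 2.80 and 2.63 FPKM in control cells and 0.570 and 0.572 FPKM on day 12, and 148 (4.44%) were listed at 0 in both day 12 libraries. Of all 30814 contigs, 944 and 1035 were listed at 0 in day 12 libraries 1 and 2. At least 1 FPKM in both libraries was met by 2327 of them on day 0 but by 476 on day 3, 609 on day 6 and 492 on day 9. The highest of them went from 224 and 219 FPKM in control cells, through 158 and 155 (day 0), to 0.241 and 0.502 (day 3) and 0.758 and 0.698 FPKM on day 12.

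**Figure D4:**
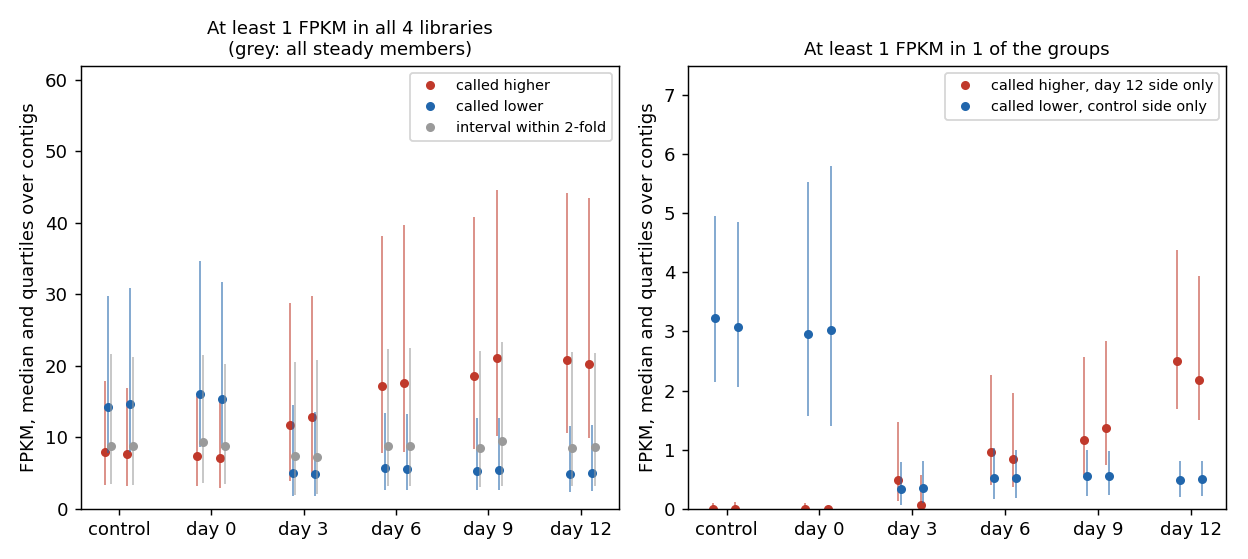
Median FPKM (points) and quartiles (bars) over contigs in each of the 12 libraries (x axis, 2 per group), for shared contigs called higher or lower and for contigs whose interval lay within 2-fold (left), and for called contigs that entered through 1 group (right). Control and day 12 chose the lists. The 3040 shared contigs called higher have a median of 7.95 and 7.60 FPKM in control cells and 20.8 and 20.3 FPKM on day 12.

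The shared contigs called on day 12 held similar levels in the control and on day 0 and had moved most of the way by day 6. Those called lower had a median of 14.2 and 14.6 FPKM in control cells, 16 and 15.4 (day 0), 4.92 and 4.84 (day 3), 5.68 and 5.52 (day 6) and 4.83 and 4.98 FPKM on day 12. Those called higher had 7.95 and 7.60 FPKM in control cells, 7.38 and 7.06 (day 0), 11.7 and 12.8 (day 3), 17.2 and 17.6 (day 6) and 20.8 and 20.3 FPKM on day 12. In FPKM as deposited, the median of the falls was near its day 12 level by day 3, and that of the rises went on rising after it.

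The same question was put to libraries that the comparison did not use, by setting day 9 against day 0 of the exposed cultures. This contrast shares no library with day 12 against the control, but it also holds culture age, and both use 1 estimate of the spread. It called 8438 of the 21878 contigs higher (38.6%) and 6789 lower (31.0%). Of the 3040 shared contigs called higher on day 12, 2642 (86.9%) were higher on day 9 than on day 0, 62 were lower and 336 were not called. Of the 4789 shared contigs called lower, 4069 (85.0%) were lower in the other contrast, 50 were higher and 670 were not called. Of the 3602 shared contigs not called on day 12, 24.0% were higher and 16.02% lower. Over all shared contigs 31.1% were higher and 41.2% lower on day 9.

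The sizes of change were also alike. Over shared contigs the median change of those called higher was 1.103 on the log2 scale for day 12 against the control and 1.26 for day 9 against day 0, and of those called lower it was -1.17 and -1.22. Across the 11431 shared contigs, which are not independent replicates and share the scaling of each library, Pearson's r between the changes was 0.898. For day 12-side contigs called higher, 4695 of 6374 (73.7%) were also higher on day 9, with a median change of 1.04 against 1.59. That share was close to the 68.1% higher on day 9 over all 7110 day 12-side contigs, so it is no separate result. Among shared contigs, the difference between early and late libraries was thus present in libraries of the exposed course that the comparison did not use.

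**Figure D5:**
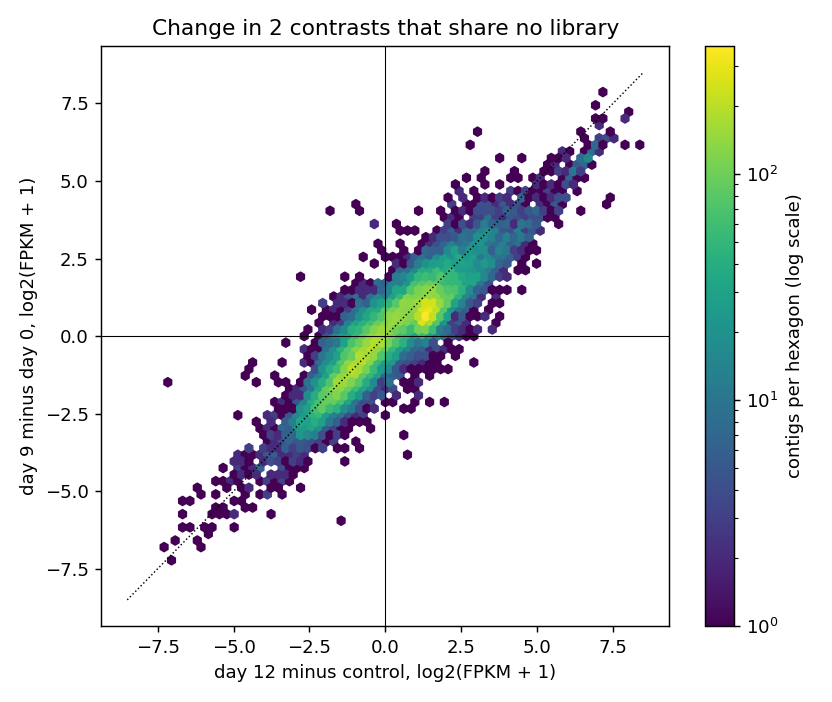
Change of each analysed contig from the control to day 12 (x axis) and from day 0 to day 9 of exposed cultures (y axis), both on the log2(FPKM + 1) scale, with the number of contigs per hexagon as colour on a log scale. The dotted line marks equal changes. The contigs lie along it, with r = 0.903 over all 21878.

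A steady group of contigs could be told from those merely not called. For 4284 contigs (19.6%) the 95% limma interval of the change lay within 2-fold in either direction, and 4015 of these were shared. They held 38.1% and 38.3% of the FPKM of the control libraries and 38.7% and 39.8% on day 12. Since they were chosen on these libraries, the likeness of their shares between the groups is no separate result. Of the 396 contigs with at least 100 FPKM in all 4 libraries, 248 (62.6%) were in this group. That filter itself leaves out contigs that were high in only 1 of the groups. By mean level over all 12 libraries, the group held 243 of 564 contigs (43.1%) from 100 to 1000 FPKM. Of the 78 contigs of at least 1000 FPKM it held 46 (59.0%). Steady did not mean equal, since 1542 of the 4284 were also called, with changes smaller than 2-fold.

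Being steady between the control and day 12 was not the same as being steady throughout. For 2699 of the 4284 (63.0%) the means of days 0, 3, 6 and 9 also lay within 1 of the control on the log2 scale. The others had left that range on at least 1 sampling day, and day 3 was the most frequent with 1242 contigs, against 340 on day 0, 438 on day 6 and 119 on day 9. Rescaling kept day 3 the most frequent, with 1434 of the 4508 contigs that were steady in the rescaled fit, against 290 on day 0, 430 on day 6 and 107 on day 9.

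The contig names end in a number from 1 to 4 that no label explains, and the contigs differed by it. Day 12-side contigs were 13.2% of the analysed contigs ending in 1, 40.3% of those ending in 2, 22.0% of those ending in 3 and 42.2% of those ending in 4. Called higher were 23.7%, 52.5%, 35.3% and 49.6%, beside 43.0% over all. Among shared contigs the spread was narrower, with 22.0%, 28.7%, 28.3% and 26.4% called higher and 46.2%, 44.2%, 43.4% and 35.1% lower. The part that this number has in the results was not tested.

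Contigs of 1 assembly component, taken as those with the same DN, c and end numbers in their names, were also set side by side. Of 1158 components with 2 or more analysed contigs, 174 (15.03%) held at least 1 contig called higher and 1 called lower, beside 43.0% and 33.9% called in these directions over all contigs. In 271 every contig was higher and in 189 every contig was lower. Opposite changes of 4-fold or more in shared contigs were found in 3 components, while 8 components had 2 or more such changes in a single direction. How fragments were divided between contigs of a component is stated nowhere in the sources used here, so opposite changes within a component are uncertain.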

How the data were processed

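Libraries were prepared with an Illumina TruSeq RNA kit, per the labels' protocols. Levels of 30814 contigs, with names of the Trinity type, were deposited as FPKM in 1 table, and every column was matched to a library (0 unmatched). The assembly settings, aligner, abundance program and filters were not given in the sources used here. FPKM is a share of a library, so abundant contigs that change shift all others. Fragment counts were not recovered from low values, so the depth is unknown and no counting interval is given. No gene list could be matched to the contig names.

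Groups came from the library titles. Values were analysed as log2(FPKM + 1) with limma 3.58.1 in R 4.3.3 (group means of all 12 libraries in 1 fit, 6 residual degrees of freedom, eBayes with an intensity trend, Benjamini-Hochberg adjustment over the 21878 analysed contigs, threshold 0.05). The fit was tested on simulated data. Summaries and figures used Python 3.11.15. Named contigs had at least 1 FPKM in all 4 libraries, an adjusted p under 0.05, no overlap between groups and libraries within 2-fold in each group, and were the 2 largest changes in each direction. The contigs, lists and tests were chosen with earlier results of these data known. Alternatives covered the scaling, pseudocount, low-value filter, intensity trend, replicate block, the 4 libraries alone and each library left out.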

Additional observations from a re-analysis of the deposited data

How the results depend on the processing

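The 4 named contigs kept their direction and a limma adjusted p under 0.05 in all 22 alternatives, with the highest p at 0.0110, for TRINITY_DN449_c0_g1_i31_2. They were chosen for the largest changes in the same libraries, so this is no separate support. The counts called depended on the low-value filter. Where contigs had to average 1 FPKM or more across libraries, 5888 contigs were higher and 6677 lower, 4388 and 4549 by 2-fold, with a median change of -0.10, so the balance turned. With at least 5 FPKM in both libraries of a group 3911 were higher and 4711 lower, 2760 and 3173 by 2-fold, 2855 lay within 2-fold, the median was -0.20, and 4155 were higher on day 9 than on day 0. With at least 1 FPKM in all 4 libraries 3040 were higher and 4807 lower, 1730 and 2886 by 2-fold, the median was -0.25, and 3592 were higher on day 9. The filter on all 4 libraries takes out day 12-side and control-side contigs by construction, and the cause of the other shifts was not tested. With no filter the median was 0.46.

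Rescaling gave 10387 higher and 5811 lower with a median of 0.53. The same rescaling with the fit on shared contigs alone, a choice made after seeing the data, gave 3956 higher and 3735 lower. By 2-fold these were 2357 and 2033, the median was 0.039, and 4163 were higher and 4139 lower on day 9. With each of the 12 libraries left out in turn, 8286 to 10571 contigs were higher and 6538 to 7632 lower, 7084 to 9257 and 4822 to 5087 by 2-fold, 3258 to 4649 lay within 2-fold and the median ran from 0.0936 to 0.55. Day 9 against day 0 then had 6631 to 9402 higher and 6155 to 6811 lower. The median was 0.37 and 0.55 without day 12 library 1 or 2, where the entry rule rests on a single day 12 library, and 0.0936 without control library 2. A fit of the 4 libraries alone called 9994 higher and 7836 lower. The replicate block gave 9447 higher and 7334 lower. Differences between libraries 1 and 2 correlated at 0.03 between the control and day 12, so their numbers gave no sign of pairing. Among days 3, 6 and 9 they correlated at 0.36, 0.22 and 0.24, a hint from the data that these numbers ran together. The remaining pairs of groups ran from -0.15 (day 9 and control) to 0.03 (day 0 and control). All analysed contigs were used, and the part that day 12-side contigs had in these values was not tested. Without read depth, the precision of low contigs is not known.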
